A study of Mus musculus with 18 samples.

Results

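The comparison described here is old against young soleus in wild-type mice. Its members are the 3 libraries titled old soleus and the 3 titled young soleus, 6 of the 18 RNA-seq libraries of a study that profiled whole skeletal muscle of mice at 2 ages. The other libraries came from the tibialis anterior (TA) and the extensor digitorum longus (EDL), with 3 old and 3 young libraries titled for each. Both age groups carried the same label for genotype (WT) and tissue (skeletal muscle), and the muscle and the age class came from the library titles. RNA was isolated with a kit for fibrous tissue and libraries were made with a SMARTer mRNA kit, per the labels. The sources used here do not give the age in months, the strain or the sex. Nothing states that the replicates came from separate animals, so p-values measure only the spread between these libraries, which may be technical.

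The soleus is a postural muscle of the calf, made largely of slow and oxidative fast fibres, and it joins the Achilles tendon. Fibres are held together by an extracellular matrix of collagens, proteoglycans and glycoproteins, which grades into tendon at the muscle's ends and is made by fibroblasts, fibro-adipogenic cells and tenocytes rather than by the fibres. In ageing muscle, more connective tissue, inflammatory transcripts and signs of denervation and regeneration are widely described.

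The soleus libraries held 2768398 to 17092868 estimated reads. The deepest was old replicate 1, and the other 5 held at most 6570838. The labels were checked against fibre genes in CPM, the read count scaled to the size of the library. Myh7, the slow myosin heavy chain, ranged from 2368 to 5585 CPM over the 6 soleus libraries and from 1.09 to 78.0 over TA and EDL. Tnni1, the slow troponin I, ranged from 2618 to 5773 CPM in soleus and reached at most 132 in the other muscles. Myh4, the heavy chain of the fastest fibres, ranged from 12.3 to 530 CPM in soleus against 9879 to 19740 outside it, and Tnni2, the fast troponin I, from 1539 to 1956 against 2607 to 5671. No soleus library overlapped the other muscles in any of the 4 genes. A library of each age group of EDL was left out of the results below, because the name of the file attached to it carries the other age. Counts with all 18 libraries are given in the closing section.

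Of 10859 genes tested, 27 differed between old and young soleus at an adjusted p under 0.05 (0.249%), in edgeR's quasi-likelihood test with Benjamini-Hochberg adjustment over all genes tested. All adjusted p-values below are from this test. In old soleus 24 genes were higher (0.221%) and 3 were lower (0.0276%). Of the 27 changes, 26 were beyond a 1-unit log2 change, and their median size regardless of sign was 1.80 on the log2 scale. The median over all genes tested, with signs kept, was 0.02, and so does not measure the size of their changes. At an unadjusted p under 0.05, 613 genes were higher (5.65%) and 521 lower (4.8%). In each of the 27 genes the 3 old and the 3 young libraries did not overlap. Over all genes tested, every old library lay above every young one in 8.78% and below in 8.36%. No gene of the slow fibre, fast fibre or energy metabolism lists passed the test.

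**Figure D1:**
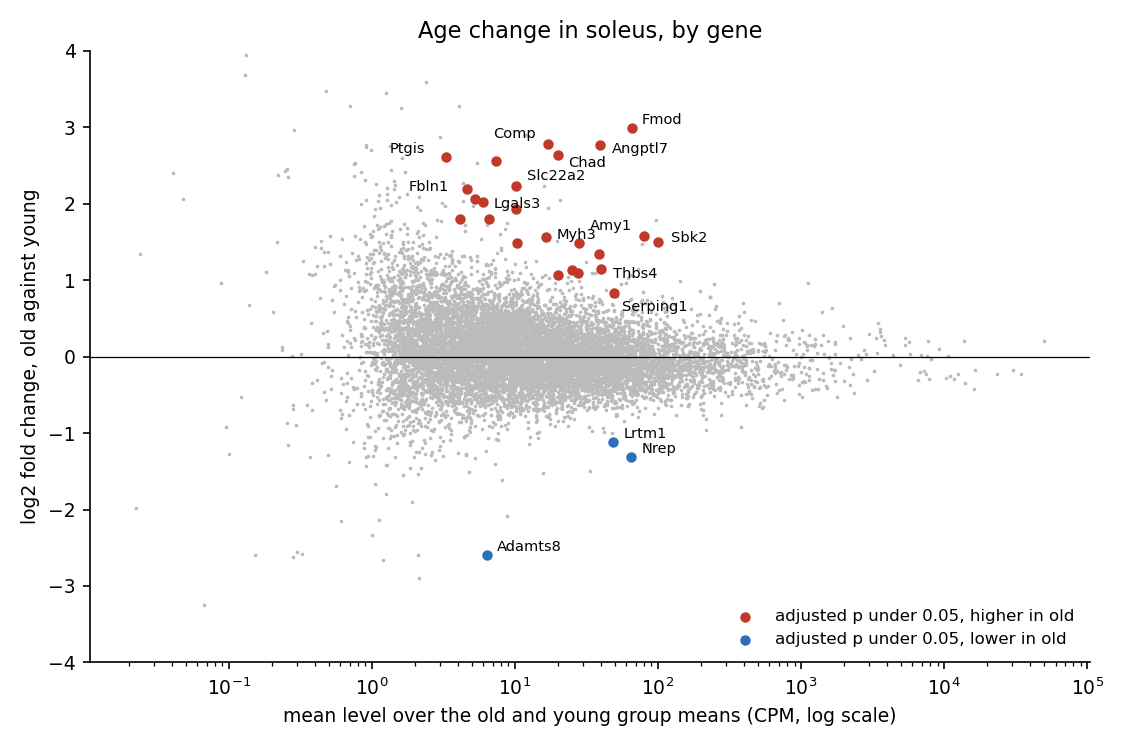
Each point is a gene tested in soleus, with its mean level in CPM on a log x axis and its log2 fold change, old against young, on the y axis. Red points are the 24 genes called higher in old and blue points the 3 called lower, 16 of the calls carry a name, and 24 genes beyond a log2 change of 4 lie outside the axis.

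The 2 genes with the smallest p, Fmod and Comp, code for matrix proteins of tendon and cartilage. Fmod is fibromodulin, a small leucine-rich proteoglycan that binds collagen fibrils and shapes their diameter (chr1:134037254-134048277, GRCm38). Its level in the old libraries was 80.9, 111 and 155 CPM, and in the young libraries 11.98, 11.4 and 21.9 CPM. The lowest old library was thus above the highest young one by a wide margin. The fitted change was 7.92-fold, a log2 change of 2.98 ± 0.30 (SE, n = 3 and 3), with an adjusted p of 3.2e-05. Comp, the cartilage oligomeric matrix protein of the thrombospondin family, which bridges collagens (chr8:70373558-70382066), stood at 30.3, 27.2 and 31.03 CPM in old and 4.31, 3.45 and 5.38 CPM in young libraries. Both groups were tight, and the rise was 6.87-fold (log2 2.78 ± 0.36, adjusted p = 2e-04).

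Chad, chondroadherin, a leucine-rich protein through which cells attach to collagen (chr11:94565047-94569127), was at 27.4, 38.3 and 37.6 CPM in old and 4.84, 5.81 and 6.05 CPM in young libraries. It rose 6.22-fold (log2 2.64 ± 0.39, adjusted p = 0.00296). Prelp, a leucine-rich protein that links basement membranes to the surrounding connective tissue (chr1:133910304-133921414), was at 38.8, 38.0 and 47.7 CPM in old and 14.9, 13.97 and 15.5 CPM in young libraries. The 3 young Prelp values were nearly equal, and the gene rose 2.80-fold (log2 1.49 ± 0.22, adjusted p = 0.0011). Thbs4, thrombospondin 4, a glycoprotein of tendons and of the fibre-tendon attachment (chr13:92751590-92794818), was at 52.0, 60.4 and 51.4 CPM in old and 24.6, 21.96 and 27.9 CPM in young libraries. Its rise was 2.21-fold (log2 1.14 ± 0.21, adjusted p = 0.00834). Angptl7, a secreted angiopoietin-like protein found in matrix-rich tissues (chr4:148495183-148500460), was at 45.9, 79.4 and 79.5 CPM in old and 13.3, 6.72 and 9.42 CPM in young libraries. It rose 6.81-fold (log2 2.77 ± 0.44, adjusted p = 0.0136).

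On the TPM scale, which also divides by transcript length, Fmod had a mean level of 47.5 ± 16.98 (SD, n = 3) in old soleus and 5.96 ± 2.24 in young. By the same measure Chad was at 27.6 ± 5.22 against 4.42 ± 0.384, Comp at 17.6 ± 1.82 against 2.63 ± 0.549 and Prelp at 14.2 ± 2.42 against 5.94 ± 1.24. Fmod was thus the most abundant of these 4 in old muscle, and in young muscle its mean and that of Prelp lay within the spread between libraries.

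The sequences upstream of 4 of these genes are shown because the genes rose together in soleus. Each is the 250 bases before the RefSeq start site (GRCm38.p6), given 5′ to 3′ on the strand of the gene, with matches to the E-box motif CANNTG in capitals. The windows are chr1:134037004-134037253 (plus strand) for Fmod, chr11:94564797-94565046 (plus strand) for Chad, chr1:133921402-133921651 (minus strand) for Prelp and chr13:92794819-92795068 (minus strand) for Thbs4.
Fmod: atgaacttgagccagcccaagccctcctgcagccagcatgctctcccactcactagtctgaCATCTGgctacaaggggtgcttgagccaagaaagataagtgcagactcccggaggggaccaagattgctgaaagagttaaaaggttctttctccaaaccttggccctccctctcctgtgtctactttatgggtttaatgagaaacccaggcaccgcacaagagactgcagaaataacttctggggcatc
Chad: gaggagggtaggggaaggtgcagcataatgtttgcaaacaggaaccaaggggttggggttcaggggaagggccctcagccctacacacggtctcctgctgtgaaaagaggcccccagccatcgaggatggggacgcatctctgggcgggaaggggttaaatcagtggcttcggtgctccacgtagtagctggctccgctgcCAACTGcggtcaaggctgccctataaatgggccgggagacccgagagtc
Prelp: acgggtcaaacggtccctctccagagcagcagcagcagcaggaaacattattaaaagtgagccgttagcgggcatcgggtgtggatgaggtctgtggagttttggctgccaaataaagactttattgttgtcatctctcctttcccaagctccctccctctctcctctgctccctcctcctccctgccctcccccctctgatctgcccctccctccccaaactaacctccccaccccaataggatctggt
Thbs4: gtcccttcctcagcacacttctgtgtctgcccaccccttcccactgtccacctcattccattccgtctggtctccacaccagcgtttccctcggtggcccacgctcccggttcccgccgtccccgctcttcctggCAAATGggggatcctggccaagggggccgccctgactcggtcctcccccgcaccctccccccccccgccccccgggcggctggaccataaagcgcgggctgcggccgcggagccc
The Fmod window held 1 match, whose first base lay 189 bases before the start. Chad held 1 at 49 bases and Thbs4 held 1 at 115 bases, and the letters were not in the Prelp window. This motif, which reads the same on both strands, was in 66.22% of 32851 windows of that length, so a match is common. Among called genes, 19 had windows, 21 in all, and 14 of these windows, in 13 genes, held a match. The TATA box TATAAA, searched on both strands, was in 12.37% of all windows and in 5 of the 21 windows of called genes. These windows belonged to 5 of the 19 genes, among them Chad.

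Over the whole list of tendon and fibrocartilage matrix genes, 13 of 16 members passed the filter on low counts. Of these 5 rose and 8 did not pass the test, with no fall, and the median log2 change was 1.14 against 0.02 for all genes tested. As with all lists here, the members were chosen with earlier results of these data known, so the median is not independent evidence. In 7 members the old libraries all lay above the young ones, as in 8.78% of all genes tested. The 2 of these that did not pass the test were Prg4, lubricin, and Cilp, a cartilage matrix protein, named after their values were seen. Prg4 was at 13.1, 18.1 and 18.8 CPM in old and 7.13, 8.35 and 6.39 CPM in young libraries (adjusted p = 0.10), and Cilp at 37.1, 34.2 and 41.5 against 14.4, 16.7 and 30.6 CPM (adjusted p = 0.197).

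The list of 10 tenocyte markers shares Fmod, Comp, Chad and Thbs4 with the genes above. Its summed level was 205, 260 and 300 CPM in old and 54.1, 54.1 and 79.0 CPM in young libraries. Of 9 tested, those 4 rose. The summed level of the other 6 (Scx, Mkx, Tnmd, Cilp2, Kera and Col11a1) was 14.2, 23.4 and 24.7 CPM in old and 8.34, 11.4 and 17.8 CPM in young libraries, with overlap. The regulators and membrane marker of tendon cells did not separate the groups. Scx, the tendon transcription factor, was at 1.41, 2.40 and 0.862 CPM in old and 0.807, 0.726 and 1.01 CPM in young libraries, below the filter. Tnmd, tenomodulin, was at 4.89, 13.3 and 12.4 CPM in old and 3.499, 4.17 and 8.41 CPM in young libraries (log2 0.97, adjusted p = 0.421). Both were named after their values were seen, and both overlapped between ages. Cartilage and bone markers other than Sox9 were near absent, with Cnmd, Col9a1, Bglap and Sp7 at 0 reads in all 6 libraries. Sox9 was the only one of 12 to pass the filter. It was at 20.6, 44.1 and 30.9 CPM in old and 40.9, 41.9 and 23.5 CPM in young libraries (log2 -0.18, adjusted p = 0.835). In whole muscle, fewer or more cells of a type and less or more RNA per cell cannot be told apart. The part of tenocyte content in these rises was not tested.

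**Figure D2:**
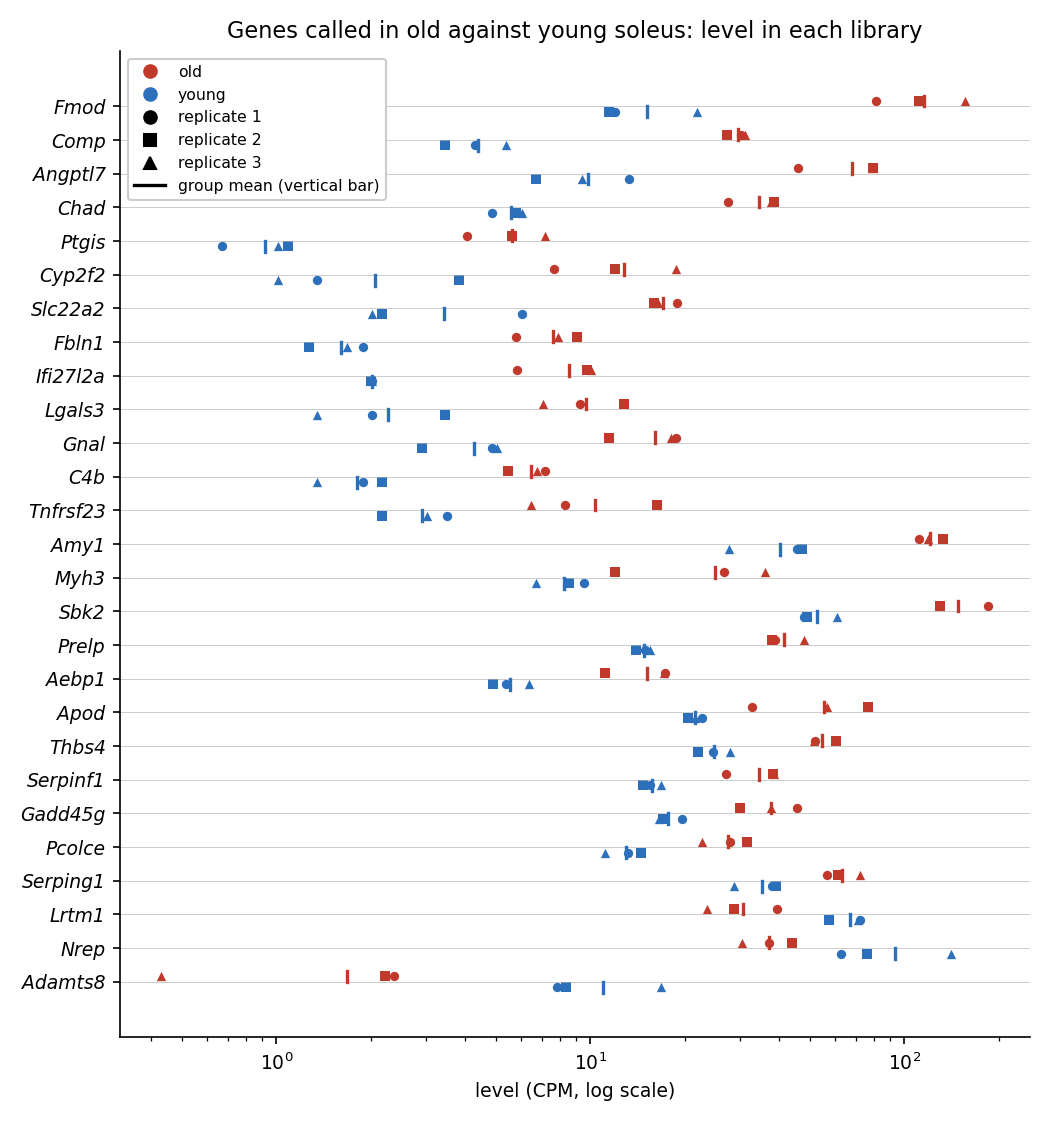
Level in CPM (log x axis) of each of the 27 called genes in every soleus library, old in red and young in blue, with the replicate given by the marker shape and the group mean by a vertical bar. The old and young points of a gene do not overlap in any row, as for Fmod at 80.9 to 155 against 11.4 to 21.9 CPM.

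Among small leucine-rich proteoglycans, the family of collagen-binding proteins that holds Fmod, Prelp and Chad, 12 of 18 members passed the filter. Those 3 rose, none fell, and 10 of 12 changes were positive, with a median of 0.32. Bgn, biglycan, which binds collagen and growth factors, was at 58.6, 57.0 and 65.7 CPM in old and 31.4, 34.3 and 39.4 CPM in young libraries. The Bgn groups did not overlap, but the change did not pass the test (log2 0.80 ± 0.21, adjusted p = 0.146). Several abundant members overlapped between ages. Dcn, decorin, was at 228, 576 and 520 CPM in old and 340, 350 and 398 CPM in young libraries (log2 0.28, adjusted p = 0.704). Only old replicate 1 lay below the young range. Without that library the log2 change of Dcn was 0.60 (adjusted p = 0.228), and 0.66 (adjusted p = 0.00202) when the GC and length trends were also removed. In that last fit, chosen after seeing the data, Ogn (0.78, adjusted p = 0.0282) and Bgn (0.76, adjusted p = 0.0449) passed as well. Lum, lumican, had a log2 change of -0.01, Aspn, asporin, of 0.06, Ogn, osteoglycin, of 0.27, and Ecm2 of 0.28. Podn, podocan (0.36), Omd, osteomodulin (0.65), and Kera, keratocan (-0.22), were expressed at under 4 CPM in every soleus library. Apart from Bgn, these uncalled members overlapped between ages, with adjusted p-values from 0.704 to 0.992. Epyc, Optc, Chadl, Nyx, Podnl1 and Tsku were below the filter.

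Other matrix genes that rose were Fbln1, Aebp1, Pcolce and Serpinf1. Fbln1, fibulin 1, a glycoprotein of elastic fibres and basement membranes, was at 5.802, 9.07 and 7.90 CPM in old and 1.88, 1.27 and 1.68 CPM in young libraries (log2 2.19 ± 0.39, adjusted p = 0.00637). Aebp1, a collagen-binding secreted protein, was at 17.3, 11.1 and 17.1 CPM in old and 5.38, 4.90 and 6.39 CPM in young libraries (log2 1.48 ± 0.26, adjusted p = 0.00637). Pcolce, which speeds the removal of the procollagen C-terminal propeptide, was at 27.8, 31.5 and 22.7 CPM in old and 13.2, 14.5 and 11.1 CPM in young libraries (log2 1.06 ± 0.23, adjusted p = 0.035). The lowest old library was above the highest young one in each of the 3. Serpinf1, a secreted serpin that restrains vessel growth, rose by a log2 change of 1.14 ± 0.22 (adjusted p = 0.0152), from 15.7 ± 1.07 CPM (SD, n = 3) in young to 34.5 ± 6.45 CPM in old.

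The collagens themselves did not pass the test in either direction. Among 11 fibrillar and associated collagens tested, none was called and none had groups without overlap. Their median change was 0.26, and -0.07 after the trends on GC content and length were removed. Col3a1, the collagen of reticular fibres, had the smallest p of the list, at 12.5, 16.9 and 19.3 CPM in old and 17.9, 33.0 and 33.0 CPM in young libraries (log2 -0.78, adjusted p = 0.386). The groups overlapped, and the direction was opposite to that of Fmod and Comp. Among 14 basement membrane genes none was called and the median was 0.08. Of 20 matrix proteases, inhibitors and crosslinkers, none rose and 1 fell. That was Adamts8, a secreted metalloprotease, at 2.37, 2.22 and 0.431 CPM in old and 7.80, 8.35 and 16.8 CPM in young libraries, from 47, 13 and 3 reads against 58, 46 and 50 (log2 -2.60 ± 0.48, adjusted p = 0.00938). Mmp2, the gelatinase of connective tissue, was at 22.4 to 23.5 CPM in old and 12.1 to 15.4 CPM in young libraries (log2 0.68, adjusted p = 0.283). Of 29 genes of TGF-beta and BMP signalling, which drives matrix production, none passed the test, and the median was 0.26. Acvr2a, an activin receptor, had the smallest p of that list (log2 -0.91, adjusted p = 0.352).

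The fibro-adipogenic cell and fibroblast markers, 17 tested, held 2 genes that rose, Fbln1 and Serpinf1. Their median was 0.29, and their summed level was 1044, 1406 and 1433 CPM in old and 922, 994 and 994 CPM in young libraries, without overlap. Gsn, gelsolin, an actin-severing protein abundant in these cells, was at 492, 430 and 533 CPM in old and 323, 317 and 255 CPM in young libraries (log2 0.70, adjusted p = 0.161). The part of fibroblast content in the matrix rises was not tested.

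**Figure D3:**
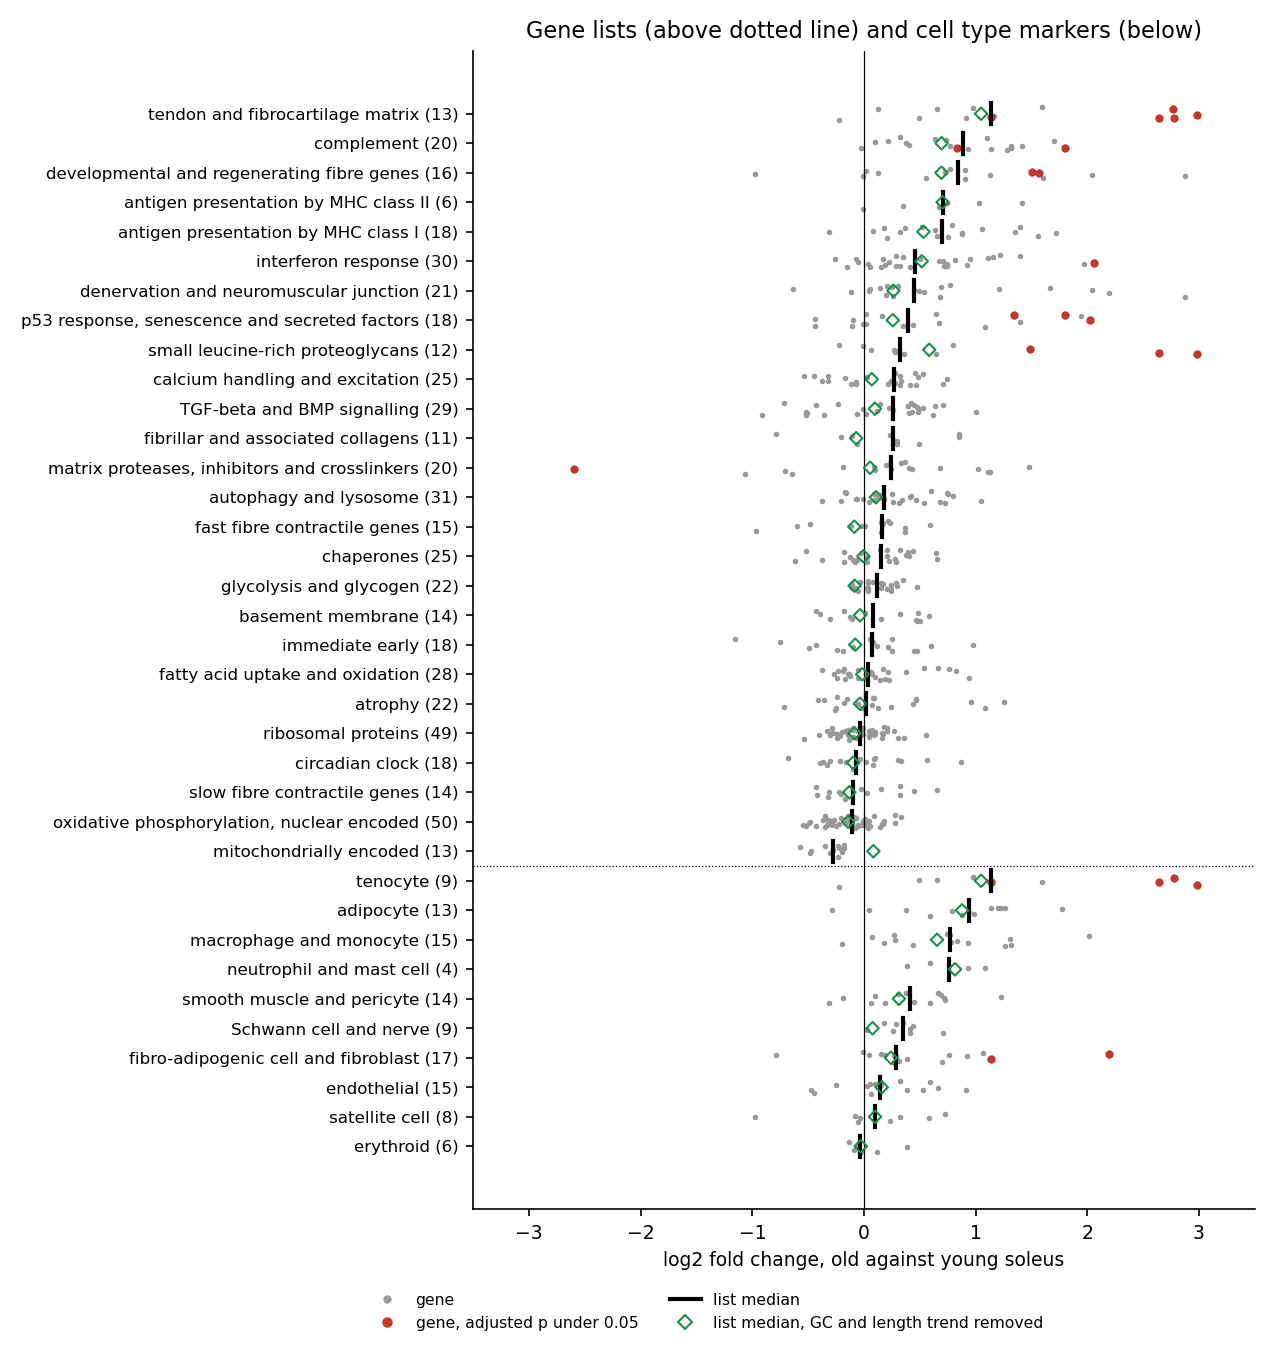
Log2 fold change, old against young soleus (x axis), of each tested member of the gene lists and, below the dotted line, of the cell type markers, with the number tested in brackets. Red points are called genes, black bars list medians and open green diamonds the medians after removal of the GC and length trends. The tendon list has the highest process median (1.14) and nuclear-encoded oxidative phosphorylation lies near 0 (-0.11). The lists were chosen with earlier results of these data known.

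Of 74 tested members of the complement, interferon and MHC lists, 3 rose and none fell. A positive change was found in 67 of them and in 52.1% of all genes tested. Complement, the cascade of plasma and tissue proteins that tags targets for clearance, had 2 genes that rose among 20 tested. C4b was at 7.16, 5.48 and 6.75 CPM in old and 1.88, 2.18 and 1.35 CPM in young libraries (log2 1.80 ± 0.39, adjusted p = 0.035). Serping1, the C1 inhibitor, was at 56.6, 61.3 and 72.3 CPM in old and 38.0, 39.0 and 28.6 CPM in young libraries (log2 0.84 ± 0.18, adjusted p = 0.04). One is an effector and the other an inhibitor of the cascade. In 11 of the 20 genes all old libraries lay above all young ones, against 8.78% of all genes tested. None lay below, and the median was 0.89. C3, the central component, was at 13.9, 9.92 and 15.8 CPM in old and 5.92, 8.53 and 3.36 CPM in young libraries (adjusted p = 0.191).

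Interferon response genes gave 1 rise among 30 tested, and a median of 0.46. Ifi27l2a, an interferon-inducible protein, was at 5.85, 9.75 and 10.1 CPM in old and 2.018, 1.996 and 2.018 CPM in young libraries (log2 2.06 ± 0.42, adjusted p = 0.0224). The young values were nearly equal but rested on 15, 11 and 6 reads. Irf7, a transcription factor of the type I interferon response, was at 13.3, 3.25 and 7.47 CPM in old and 1.48, 2.36 and 2.69 CPM in young libraries (adjusted p = 0.10). In 12 of the 30 genes the old libraries all lay above the young ones (8.78% of all genes tested), and in none below.

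Antigen presentation genes had no call in the fit of 16 libraries. In a fit of the 6 soleus libraries alone H2-D1 (adjusted p = 0.0325) and H2-Ab1 (0.0451) were called. Among 18 tested for MHC class I, which shows peptides to cytotoxic T cells, 17 changes were positive with a median of 0.70. H2-D1, a classical heavy chain, was at 105, 75.6 and 82.9 CPM in old and 39.8, 47.7 and 38.7 CPM in young libraries (adjusted p = 0.237). Of 6 genes for MHC class II, which shows peptides to helper T cells, 5 changes were positive with a median of 0.71. H2-Ab1 was at 12.4, 11.5 and 11.4 CPM in old and 5.65, 3.99 and 3.03 CPM in young libraries (log2 1.41, adjusted p = 0.146). Neither gene overlapped between ages. The H2 genes and C4b share sequence with close copies, so their counts are uncertain.

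None of 15 macrophage and monocyte markers passed the test. Their summed level was 93.5, 109 and 131 CPM in old and 58.0, 81.7 and 57.2 CPM in young libraries, 14 changes were positive and the median was 0.77. Cd68, a lysosomal protein of macrophages, was at 5.55, 3.94 and 5.60 CPM in old and 1.08, 1.82 and 0.673 CPM in young libraries (log2 2.01 ± 0.52, adjusted p = 0.135). It was called in the fit of the 6 soleus libraries alone (adjusted p = 0.046). None of 13 T and NK cell markers passed the filter, and Cd3e, Klrb1c and Gzmb were at 0 reads in all 6 libraries. Ly6g, Mpo and Elane, which define neutrophils, were at 0 as well. The part of macrophage content in the immune changes was not tested.

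Genes of developing and regenerating fibres gave 2 rises among 16 tested, with a median of 0.84. Sbk2, a kinase of the SH3-binding kinase family, was at 185, 130 and 130 CPM in old and 47.9, 48.99 and 60.9 CPM in young libraries (chr7:4940512-4964406). It rose 2.84-fold (log2 1.505 ± 0.222, adjusted p = 0.000935), and per length it had a mean of 112 ± 24.7 TPM (SD, n = 3) in old, the highest of the 27 called genes. Sbk2 was placed on this list with earlier results of these data known. It was also at 106, 121 and 60.2 CPM in young TA, so its level alone does not mark developing or regenerating fibres. Myh3, the embryonic myosin heavy chain, was at 26.7, 11.98 and 35.9 CPM in old and 9.55, 8.53 and 6.73 CPM in young libraries (log2 1.57 ± 0.31, adjusted p = 0.0154). Old replicate 2 lay closest to the young range. Tnnt2, the cardiac and embryonic troponin T, was at 14.2, 16.9 and 13.7 CPM in old and 7.94, 6.53 and 9.75 CPM in young libraries (adjusted p = 0.238).

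Old replicate 2 stood apart in other genes of the same kind. Myod1, a transcription factor of muscle cell commitment, was at 7.01, 22.4 and 6.03 CPM in old and 3.499, 3.63 and 4.37 CPM in young libraries (adjusted p = 0.131). Myog, myogenin, which drives muscle differentiation and rises on denervation, was at 8.17, 85.5 and 8.05 CPM in old and 7.94, 11.98 and 3.03 CPM in young libraries (adjusted p = 0.465). Chrng, the fetal acetylcholine receptor subunit, was at 2.98, 12.7 and 0.431 CPM in old and 0.673, 0.907 and 0.336 CPM in young libraries (adjusted p = 0.285). Each had its highest value in that library. Runx1, named like Myog after its values were seen, was at 1.56, 19.9 and 2.30 CPM in old and 2.02, 1.82 and 0.673 CPM in young libraries (adjusted p = 0.438). Of 21 genes of denervation and the neuromuscular junction none was called. Their median was 0.45, but 0.22 without old replicate 2, 0.19 without old replicate 1 and 0.26 after removal of the GC and length trends. Chrnd, the delta subunit of the receptor, had the smallest p, at 17.96, 14.4 and 9.77 CPM in old and 7.80, 5.08 and 5.04 CPM in young libraries (log2 1.21, adjusted p = 0.161). Without old replicate 2 the median of the developmental list was 0.68.

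Of 18 genes of the p53 response, senescence and secreted factors, 3 rose and none fell. The median was 0.39, but 0.21 without old replicate 2 and 0.26 after removal of the GC and length trends. Apod, apolipoprotein D, a lipid-binding secreted protein, was at 32.7, 76.5 and 56.6 CPM in old and 22.7, 20.5 and 21.5 CPM in young libraries (log2 1.34 ± 0.25, adjusted p = 0.01). Lgals3, galectin 3, a sugar-binding protein of macrophages and stressed cells, was at 9.23, 12.8 and 7.04 CPM in old and 2.02, 3.45 and 1.35 CPM in young libraries (log2 2.02 ± 0.39, adjusted p = 0.0144). Tnfrsf23, a decoy receptor for the death ligand TRAIL, was at 8.27, 16.3 and 6.47 CPM in old and 3.499, 2.18 and 3.03 CPM in young libraries (log2 1.80 ± 0.37, adjusted p = 0.0224). The first of these is secreted, the second acts inside and outside cells, and the third blocks a death signal at the membrane. Eda2r, a receptor of the ectodysplasin family and a p53 target, was at 7.32, 17.96 and 9.34 CPM in old and 3.36, 4.72 and 5.04 CPM in young libraries (adjusted p = 0.131). Cdkn2a and Il6 had 0 reads in all 6 libraries. Gadd45g, a stress-inducible gene outside the list, was at 45.5, 29.9 and 37.6 CPM in old and 19.5, 17.1 and 16.5 CPM in young libraries (log2 1.09 ± 0.23, adjusted p = 0.0318).

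The remaining called genes belong to no list. Amy1, the salivary-type amylase, was at 111, 133 and 118 CPM in old and 45.4, 47.2 and 27.6 CPM in young libraries (log2 1.58 ± 0.21, adjusted p = 0.000245). Slc22a2, a transporter of organic cations, was at 18.9, 15.9 and 16.4 CPM in old and 6.06, 2.18 and 2.02 CPM in young libraries (log2 2.23 ± 0.40, adjusted p = 0.0124). It had 0 reads in all 10 TA and EDL libraries used. Ptgis, prostacyclin synthase, rose from 0.924 ± 0.221 CPM (SD, n = 3) to 5.62 ± 1.57 CPM (log2 2.60 ± 0.46, adjusted p = 0.00637), on 3 to 6 reads in each young library.

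Cyp2f2, a cytochrome P450 of the airways and liver, was at 7.67, 11.98 and 18.7 CPM in old and 1.35, 3.81 and 1.01 CPM in young libraries (adjusted p = 0.035). Gnal, a G protein subunit known from olfactory and striatal signalling, was at 18.7, 11.5 and 18.1 CPM in old and 4.84, 2.90 and 5.04 CPM in young libraries (log2 1.93 ± 0.36, adjusted p = 0.00938). These 5 genes were all higher in old soleus. The other 2 genes that fell were Lrtm1, a leucine-rich repeat transmembrane protein, and Nrep, a small protein linked to myofibroblasts and nerve regrowth. Lrtm1 was at 39.3, 28.7 and 23.6 CPM in old and 72.3, 57.5 and 71.3 CPM in young libraries (log2 -1.12 ± 0.19, adjusted p = 0.00374). Nrep was at 37.0, 44.0 and 30.5 CPM in old and 62.8, 76.0 and 140 CPM in young libraries (log2 -1.31 ± 0.24, adjusted p = 0.00938). Strand use in counting is not given in the sources used here. Amy1, Gnal and Pcolce overlap another protein-coding gene on the same strand, and Sbk2, Chad, Lrtm1, Angptl7 and Gnal one on the other strand, so reads may be shared. Amy1, Ifi27l2a, Tnfrsf23 and Cyp2f2 have close relatives in the genome and carry the same doubt.

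The contractile genes of the soleus were not called in either direction. Of 14 slow fibre genes tested, 8 changes were negative and the median was -0.10. All old libraries lay below all young ones in 5 of them, and in 8.36% of all genes tested. Myoz2, a Z-disc protein of slow fibres, was at 858, 1150 and 1048 CPM in old and 1431, 1347 and 1350 CPM in young libraries (log2 -0.43, adjusted p = 0.413). Myl2, the slow regulatory light chain, was at 1103 to 1179 CPM in old and 1413 to 1577 CPM in young libraries (log2 -0.42, adjusted p = 0.599). The groups did not overlap in either gene, but the changes were small. Myh7 itself was at 5585, 2368 and 3960 CPM in old and 3440, 3238 and 2844 CPM in young libraries (adjusted p = 0.783). Of 15 fast fibre genes none was called and the median was 0.16. Myh2, the heavy chain of oxidative fast fibres, was at 4815, 3098 and 4141 CPM in old and 2401, 3391 and 3565 CPM in young libraries (adjusted p = 0.639), and Myh4 varied from 19.9 to 230 CPM in old and from 12.3 to 530 CPM in young.

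Energy metabolism, protein turnover and housekeeping lists had no call in either direction. Among 50 nuclear-encoded oxidative phosphorylation genes 34 changes were negative, with a median of -0.11. The median was 0.04 for 28 genes of fatty acid uptake and oxidation, 0.12 for 22 of glycolysis and glycogen, -0.04 for 49 ribosomal proteins and 0.15 for 25 chaperones. For 22 atrophy genes it was 0.02, for 31 of autophagy and lysosome 0.18, for 25 of calcium handling 0.27, for 18 clock genes -0.07 and for 18 immediate early genes 0.07. Single members reached larger values without passing the test. Mt1, a metallothionein, was at 29.4, 80.2 and 40.1 CPM in old and 23.3, 26.5 and 19.5 CPM in young libraries (adjusted p = 0.131). Ctsz, a lysosomal cathepsin, was at 41.3, 29.3 and 24.7 CPM in old and 15.6, 15.97 and 14.8 CPM in young libraries (log2 1.04, adjusted p = 0.124).

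All 13 mitochondrially encoded genes had a negative change, with a median of -0.28, and none was called. Their share of reads was 11.3, 19.7 and 19.2% in old and 16.5, 19.4 and 21.0% in young libraries. The means were 16.7 ± 4.71% (SD, n = 3) and 18.98 ± 2.31%, and the groups overlapped (two-sided exact permutation test, p = 0.6, the smallest p that 3 against 3 allows being 0.1). The lowest share was in old replicate 1. Without it the difference changed sign, from -2.25 to 0.465 percentage points, and the median of the 13 genes was -0.03. After removal of the GC and length trends that median was 0.08, and 0.18 with old replicate 1 left out as well.

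Of other cell types, adipocyte markers had 12 of 13 positive changes and a median of 0.94, with none called. Without Car3, which fibres also express, their summed level was 576, 784 and 722 CPM in old and 493, 496 and 557 CPM in young libraries. Cfd, the adipocyte protease adipsin, was at 72.5, 115 and 111 CPM in old and 39.7, 45.7 and 50.1 CPM in young libraries (adjusted p = 0.318). It was called in the fit of the 6 soleus libraries alone (adjusted p = 0.0325). Medians were 0.14 for 15 endothelial markers, 0.41 for 14 of smooth muscle and pericytes, 0.35 for 9 of Schwann cells and nerve, 0.10 for 8 of satellite cells and -0.04 for 6 erythroid genes. The 4 neutrophil and mast cell markers tested had a median of 0.76. None of these lists held a called gene in the fit of 16 libraries.

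Of 13 tendon and fibrocartilage genes tested, 4 (Fmod, Comp, Thbs4 and Angptl7) had an age change in soleus that differed from that in TA. Chad (adjusted p = 0.0888) and Prg4 (0.0648) did not pass that test. After removal of the GC and length trends Prg4 (adjusted p = 0.0164) and Tnmd (0.0303) passed it, and Angptl7 (0.146) did not. The Tnmd difference rests on 0, 0.601 and 2.01 CPM in old TA. The main fit tested the difference of age change, soleus minus TA, for every gene, and 14 passed (0.129%), 13 more positive in soleus (0.12%) and 1 more negative (0.00921%). Fmod in TA was at 14.2, 9.62 and 13.03 CPM in old and 29.1, 36.7 and 37.3 CPM in young libraries, so it was lower in every old TA library. The 2 age changes differed by 4.49 ± 0.46 on the log2 scale (adjusted p = 5.15e-05). Prelp in TA was at 7.11, 9.62 and 9.02 CPM in old and 14.8, 17.4 and 20.4 CPM in young libraries, a difference of 2.495 ± 0.374 (adjusted p = 0.00181). The Prelp difference did not pass in limma-voom. Comp was nearly absent from old TA, with 0, 0 and 1.002 CPM against 0.838, 3.07 and 5.47 CPM in young TA (adjusted p = 0.00354). The fitted difference of 6.16 ± 1.01 rests on 0, 0 and 1 read in old TA, so it depends on the prior count and is no bound, and it did not pass in limma-voom or without old TA replicate 2.

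Thbs4 (2.11) and Sbk2 (2.10) also had a more positive age change in soleus than in TA, both with an adjusted p of 0.00181. Sbk2 in TA was at 60.0, 55.9 and 77.2 CPM in old and 106, 121 and 60.2 CPM in young libraries, where the groups overlapped. Smtnl1, a smoothelin-like regulator of contraction, differed by 1.74 (adjusted p = 0.00181) through a fall in TA, with no call in soleus (log2 0.53, adjusted p = 0.304). None of Fmod, Prelp, Comp, Thbs4 and Sbk2 passed the test within TA, with adjusted p-values from 0.106 to 0.447. The 3 old TA libraries held 1154747 to 1866652 reads, fewer than any soleus library.

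Against EDL, with 2 old and 2 young libraries whose ages rest on their titles, 19 genes differed in age change (0.175%), 9 more positive in soleus (0.0829%) and 10 more negative (0.0921%). Fmod in EDL was at 120 and 146 CPM in old and 320 and 157 CPM in young libraries, a difference from soleus of 3.83 ± 0.44 (adjusted p = 8.56e-05). Old soleus thus lay near the EDL levels and young soleus far below them. Of the 10 genes more negative in soleus, 7 code for slow fibre proteins. They include Tnnt1 (-2.80), Tnnc1 (-2.96), Myl3 (-2.73), Tnni1 (-3.44) and Tpm3 (-1.92), with adjusted p-values from 8.56e-05 to 0.00108. In EDL Tnni1 was at 132 and 106 CPM in old and 8.42 and 11.2 CPM in young libraries. In soleus Tnni1 was at 5773, 3359 and 2966 CPM in old and 4626, 3662 and 2618 CPM in young libraries, with overlap.

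Over the 27 genes called in soleus, the change had the same sign in TA for 15 and in EDL for 16. Slc22a2, with 0 reads in both muscles, could not count towards either number. The matching share over all genes tested is not given here, so these numbers have no background. In TA 0.221% of all genes tested were called, among them Amy1, Apod and Tnfrsf23, and in EDL 1.78%, among them Amy1, Nrep, Lgals3 and C4b. Lgals3 in TA was at 7.11, 5.41 and 2.01 CPM in old and 0.559, 0.977 and 1.99 CPM in young libraries (adjusted p = 0.131), and its age change in soleus did not differ from that in TA past the threshold (difference -0.23 ± 0.68). The difference from TA passed for 8 of the 27, that from EDL for 8, and both for 6, namely Fmod, Comp, Prelp, Thbs4, Angptl7 and Serpinf1. After removal of the GC and length trends, 9 of the 14 differences from TA and 15 of the 19 from EDL passed. Those that did not were Angptl7, Serpinf1, Aebp1, Gsn and Myh2 against TA and Angptl7, Chad, Myl3 and Atp2a2 against EDL. With these trends removed, 19 genes in all differed from TA, 13 more positive in soleus and 6 more negative. Against EDL 19 differed, 11 more positive in soleus and 8 more negative. Tnmd was among the more positive ones against EDL (2.55, adjusted p = 0.0414). In limma-voom 5 of the 14 and 16 of the 19 passed, and Comp, Prelp, Angptl7 and Serpinf1 were among those that did not against TA. Over 27 alternatives to the fit, the difference from TA kept its call in 9 for Angptl7 and in 12 for Serpinf1. The shift of GC-rich against GC-poor genes was -0.52, -0.45 and -0.55 in old and -0.23, 0.06 and -0.36 in young TA libraries, and 0.23 and 1.58 in old and -0.43 and -0.17 in young EDL libraries.

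**Figure D4:**
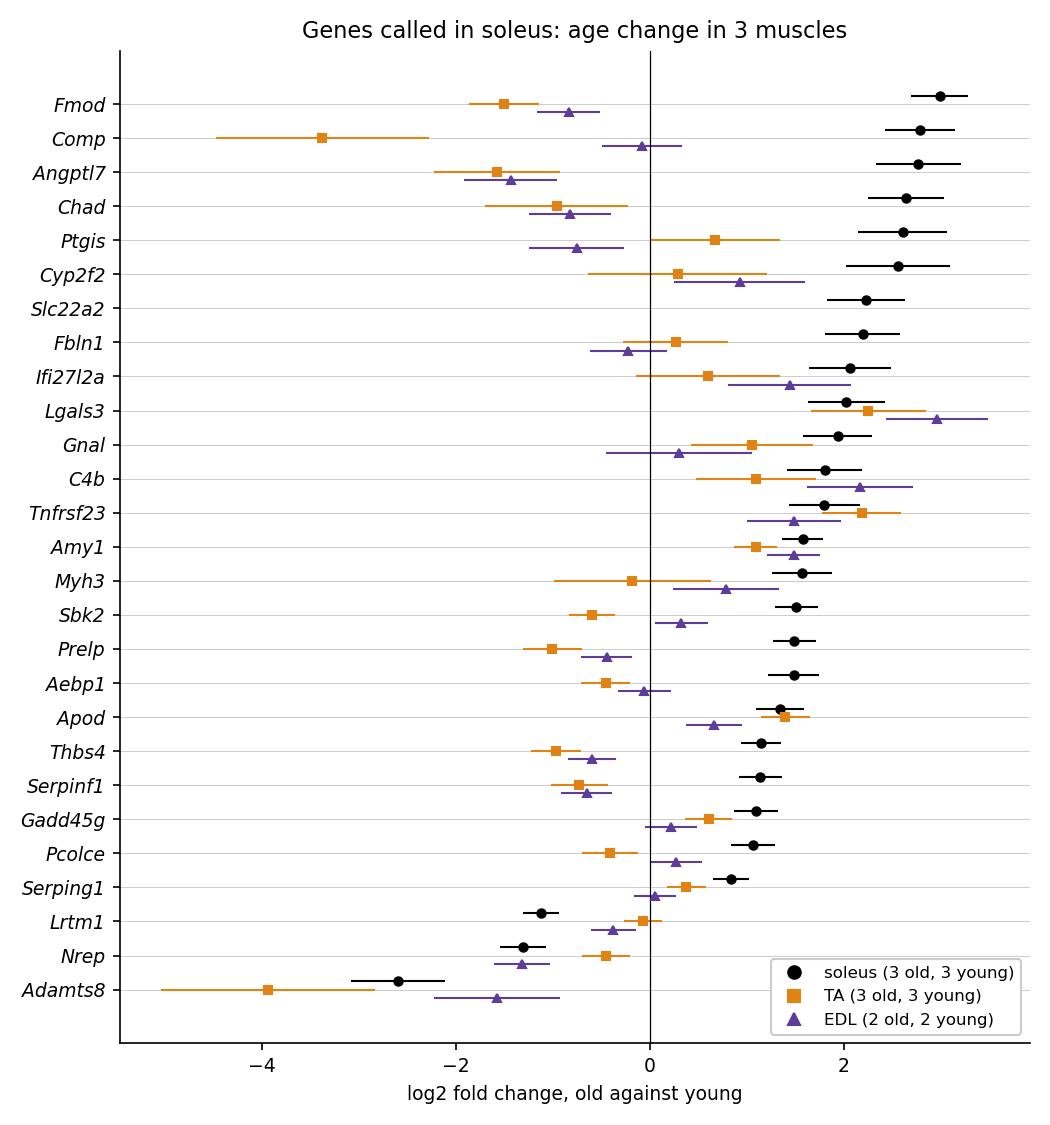
Log2 fold change, old against young (x axis), of the 27 genes called in soleus, in soleus (black), TA (orange) and EDL (purple), with bars of 1 SE. The first rows, from Fmod (2.98 in soleus, -1.50 in TA, -0.84 in EDL) to Chad, lie on opposite sides of 0, and Slc22a2 has a point only for soleus because it had 0 reads elsewhere.

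The GC trend differed between the old and the young soleus libraries. GC-rich genes were shifted against GC-poor genes by 1.19, 0.26 and 0.14 (median log2 deviation) in the old libraries and by 0.03, -0.09 and -0.42 in the young libraries, without overlap. The highest shift was in the deepest soleus library, old replicate 1 (17092868 reads), and the lowest in the shallowest, young replicate 3 (2768398 reads). In TA the old libraries lay below the young ones. The part of depth in the GC trend was not tested. The median age change went from -0.27 in the GC-poorest quintile of genes to 0.35 in the GC-richest quintile, and 20 of the 27 called genes lay in the top 2 quintiles. Without old replicate 1 these medians were -0.14 and 0.13. When each library was corrected for its trend on GC content and length, 32 genes were called, 25 higher and 7 lower, so that 78.1% rather than 88.9% of calls were higher in old. Of the 27 genes 18 kept their call, including Fmod (log2 2.85, adjusted p = 0.0154), Comp (2.41, 0.00087), Prelp (1.30, 0.00517), Sbk2 (1.19, 0.00183), Thbs4 (0.96, 0.0121), Myh3 (1.43, 0.0131) and Serping1 (0.70, 0.0383). The 9 that did not were Chad (log2 2.38, adjusted p = 0.0835), Lrtm1 (-0.84, 0.0919), Nrep (-1.20, 0.0609), Angptl7 (2.72, 0.0534), Serpinf1 (0.94, 0.0609), Gadd45g (0.75, 0.155), Pcolce (0.72, 0.169), Cyp2f2 (2.41, 0.0919) and C4b (1.58, 0.055). Their direction stayed the same. Genes called only after the correction included Prg4 (log2 1.235, adjusted p = 0.0142) and Eda2r (1.665, 0.0131). Also higher in old were Thbs2, Plin3, Ifitm3, Slc40a1, Spp1 and Itgbl1. Fbxo9, Hoxc10, Itm2a, Dusp8, Mlf1 and Mrpl18 were lower in old. Apart from Prg4 and Eda2r, these genes are named for that call alone. After the correction the list medians were 1.05 for tendon matrix, 0.58 for small leucine-rich proteoglycans, 0.69 for developmental genes, 0.69 for complement, 0.53 for MHC class I and 0.52 for interferon response. Without old replicate 1, and uncorrected, they were 1.26, 0.59, 0.73, 1.02, 0.54 and 0.47.

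**Figure D5:**
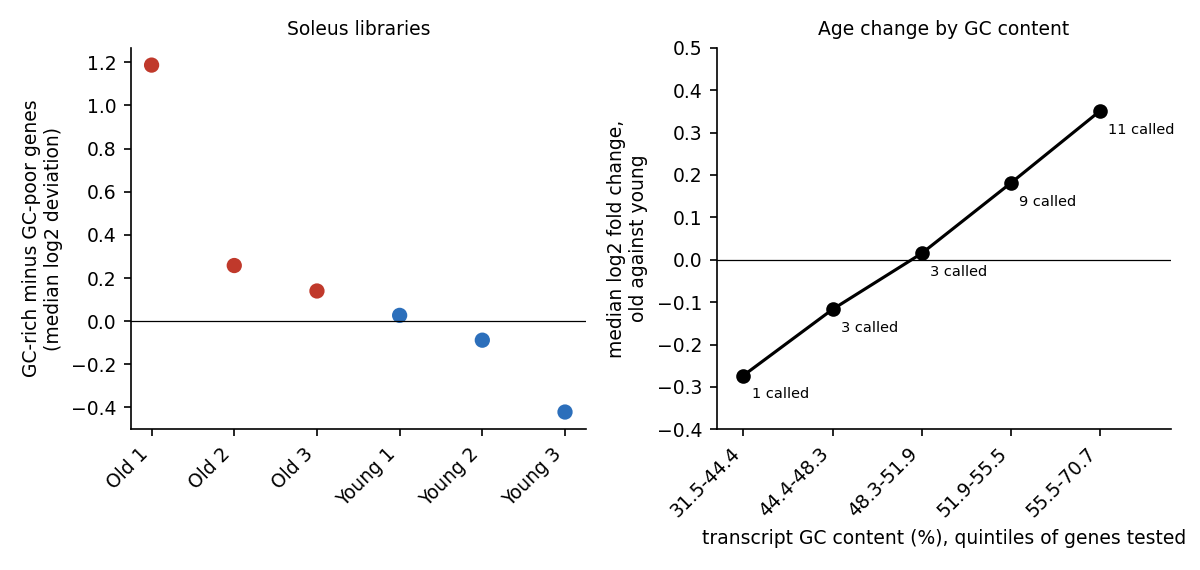
Left, the shift of GC-rich against GC-poor genes (median log2 deviation) in each soleus library, old in red and young in blue. Right, the median log2 fold change, old against young, in quintiles of genes by transcript GC content, rising from -0.27 to 0.35, with the number of called genes beside each point.

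The number of calls also depended on single libraries. Leaving out young replicate 1, 2 or 3 gave 13, 12 or 13 calls, and leaving out old replicate 1, 2 or 3 gave 34, 19 or 30. Of the 27 genes, 7 kept their call in all 6 of these fits, namely Fmod, Comp, Amy1, Sbk2, Prelp, Chad and Lrtm1. For Fmod the log2 change then ranged from 2.72 to 3.30 and the adjusted p reached at most 0.00132. Thbs4 lost its call without young replicate 1 (adjusted p = 0.0717) or 2 (0.135), and Angptl7 without old replicate 2 (0.0532) or young replicate 2 (0.101) or 3 (0.114). Myh3 lost it without old replicate 3 (adjusted p = 0.148) or young replicate 1 (0.0798), 2 (0.151) or 3 (0.146), Fbln1 without young replicate 2 (0.105), Ptgis without young replicate 1 (0.103) and Adamts8 without young replicate 3 (0.115). C4b lost it in all 6 fits (adjusted p from 0.0587 to 0.249). Over all 22 alternatives to the fit, 4 genes, Fmod, Comp, Sbk2 and Prelp, kept their call throughout, and no called gene changed direction in any.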

How the data were processed

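The 18 libraries were single quantification tables, 1 per library. Per the file headers, each deposited table gives, for every transcript, an estimated count of reads, a TPM value, the length and an effective length. Which program, genome build and annotation made them was not given in the sources used here. Tools in the submitters' processing notes are STAR 2.5.1a, Subread, featureCounts 1.4.6-p5 and bcl2fastq. The authors' estimated counts were summed to genes with the GENCODE M21 annotation (GRCm38), which matched 97.23% of 86127 transcripts by identifier and left 0.2822 to 0.3251% of soleus reads unmatched, and were rounded. Of the matched transcripts 87.62% had the same length in both. GC content and length for the trend correction came from GENCODE M21 and may differ from the transcripts quantified. The deposited TPM values were summed to genes and used for levels per length only.

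Genes were tested with edgeR 4.0.16 (R 4.3.3), with edgeR's default filter on low counts (minimum count 10), TMM scaling and a robust quasi-likelihood fit of 16 libraries in 6 groups without covariates. The Benjamini-Hochberg threshold was 0.05, tests were two-sided, and SE is the log2 change divided by the root of the F statistic. EDL old 1 and EDL young 1 were left out. CPM values use TMM library sizes. Fitted log2 changes of genes with few reads are shrunk by edgeR's prior count. Depth limits precision: 3 reads, the floor used for a count of 0, corresponded to 0.151 CPM in the deepest soleus library and 1.01 in the shallowest, counting error only. GC and length trends were removed in an alternative by lowess offsets per library (span 0.3). Other alternatives used DESeq2 1.42.0, limma 3.58.1, other scalings, filters, offsets and library sets. The scripts were tested on simulated data.

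Named are all genes called in soleus, up to 4 members of each gene list with the smallest p and defining members at 0 reads, all measured small leucine-rich proteoglycans, up to 6 genes per other muscle with the smallest p for the difference of age change among those at 5 CPM or more in soleus, and Myh7, Tnni1, Myh4 and Tnni2. Genes outside this rule are said to be so. The members and lists were chosen with earlier results of these data known. The 4 list names C4a, H2-L, Dusp29 and Mrln had no match by symbol and were not counted in their lists. A gene measured under another symbol would be missed in this way.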

Additional observations from a re-analysis of the deposited data

Results flagged for a closer look

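Of 10859 genes tested, 14 had an age change in soleus that differed from that in TA, and 19 from that in EDL, each by edgeR's quasi-likelihood test of the difference itself with Benjamini-Hochberg adjustment over all genes. Each value below is the log2 age change in soleus minus that in the other muscle.

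Matrix and secreted proteins made up most of the genes with a more positive change in soleus. Against TA these were Fmod (4.49), Angptl7 (4.35), Prelp (2.495), Thbs4 (2.11), Aebp1 (1.94) and Serpinf1 (1.87), and Comp (6.16), whose value rests on 0, 0 and 1 read in old TA, depends on the prior count and is no bound. Against EDL they were Angptl7 (4.20), Fmod (3.83), Chad (3.46), Comp (2.87), Prg4 (2.58), Prelp (1.94), Serpinf1 (1.79) and Thbs4 (1.74), together with the prostacyclin synthase gene Ptgis (3.36). Prg4 was the one of these without a call in soleus.

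The other genes more positive in soleus than in TA were Myh2 (2.24), Sbk2 (2.10), Pcx, which codes for the anaplerotic enzyme pyruvate carboxylase (1.91), Smtnl1 (1.74), the dual-specificity phosphatase gene Dusp26 (1.68) and Gsn (1.59). Only Sbk2 of these was called within soleus. Myh2 in TA was at 620, 371 and 622 CPM in old and 1129, 2160 and 2599 CPM in young libraries, while in soleus its groups overlapped. After removal of the GC and length trends Myh2, Gsn, Angptl7, Aebp1 and Serpinf1 no longer differed from TA past the threshold, nor did Angptl7, Chad, Myl3 and Atp2a2 from EDL. Myh2 and Angptl7 did not pass against TA without old soleus replicate 1 either. In limma-voom 5 of the 14 differences from TA passed, and Aebp1, Angptl7, Comp, Dupd1, Dusp26, Myh2, Pcx, Prelp and Serpinf1 did not.

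Dupd1, a phosphatase gene known to rise on denervation, was more negative in soleus than in TA (-1.58) and in EDL (-1.82). It was at 95.3, 101 and 60.9 CPM in old and 60.8, 64.4 and 51.1 CPM in young soleus, and at 64.7, 114 and 84.2 CPM in old and 19.8, 21.1 and 19.9 CPM in young TA.

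Slow fibre genes made up 7 of the 10 genes more negative in soleus than in EDL, namely Myh7 (-4.64), Tnni1 (-3.44), Tnnc1 (-2.96), Tnnt1 (-2.80), Myl3 (-2.73), Atp2a2 (-2.23) and Tpm3 (-1.92). Each of the 7 was called higher in old EDL, and none was called in soleus. Their log2 age changes ran from 1.695 (Tpm3) to 4.96 (Myh7) in EDL and from -0.318 (Atp2a2) to 0.323 (Myh7) in soleus. Car3, a carbonic anhydrase of slow fibres and fat, differed by -1.13. Lsm7 differed by -8.32, on 0 reads in both young EDL libraries against 7.34 and 6.14 CPM in the old ones, so the value depends on the prior count and is no bound.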

How the results depend on the processing

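The 27 soleus calls became 42 with DESeq2, 200 without a filter on low counts (17535 genes tested), 14 when average transcript length was offset, 7 with all 18 libraries by title, and 12 to 34 when 1 soleus library was left out. A fit of the 6 soleus libraries alone gave 32 calls among 10225 genes tested, 28 higher and 4 lower, 23 of them shared with the 27. The 14 differences from TA became 49 with DESeq2, 6 with limma-voom, 228 without a filter, 6 with 18 libraries, 27 with the 12 libraries of soleus and TA, and 8 to 18 with 1 library left out. The 19 differences from EDL became 100 without a filter, 12 with the length offset, 10 with 18 libraries and 9 to 28 with 1 library left out. Removing the GC and length trends together with old soleus replicate 1, an alternative chosen after seeing the data, gave 53, 29 and 40. Why these counts moved was not tested beyond the number of genes and libraries each setting used. The difference in mitochondrial share, -2.25 percentage points, ranged from -3.73 to 0.465 with 1 library left out, the sign changing without old soleus replicate 1 only. Over 594 pairs of a called gene and an alternative, 465 kept the call, 129 lost it and none reversed.

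Whether replicate numbers in the titles pair the soleus libraries was not settled. Deviations of same-numbered old and young libraries correlated at 0.231, 0.015 and 0.173, and those of differently numbered ones at -0.196 to 0.057. Old replicates 1 and 3 each correlated best with the same-numbered young library, and old replicate 2 with young replicate 3 (0.057). With the replicate number as a block 26 genes were called in soleus, 25 of them shared, with 13 differences from TA and 16 from EDL. With the block and the GC and length offset, also chosen after seeing the data, 40 were called, 29 higher and 11 lower.

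Soleus depth was 2768398 to 17092868 reads. Thinning old replicate 1 to 5197514 reads gave 25 calls, 24 of them shared. With total-count scaling the median of all genes tested was 0.08 and 32 were called.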

Other observations

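Gdf5, a growth factor of joints and of tendon that also rises in denervated muscle, was chosen after its values were seen. It had 17, 40 and 5 reads in the 3 old soleus libraries and 0 in each of the 3 young ones, which allows up to 1.01 CPM in the shallowest. Its levels in old soleus were 0.858, 6.84 and 0.718 CPM, and it did not pass edgeR's quasi-likelihood test in soleus (adjusted p = 0.0867). It did pass in DESeq2 (adjusted p = 0.00538) and in edgeR without old replicate 1 (adjusted p = 0.0147). Gdf5 was also at 4.74, 4.81 and 6.02 CPM in old TA and 0, 0.698 and 0 CPM in young TA.

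Fmod and Prelp lie 115.8 kb apart on chromosome 1 in opposite orientation. Of the annotated protein-coding neighbours, Optc, next to Prelp, had at most 0.182 CPM in any soleus library. Btg2, next to Fmod, was at 31.7, 39.7 and 29.7 CPM in old and 39.4, 33.8 and 34.6 CPM in young libraries, with a log2 change of -0.10 (adjusted p = 0.899).

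Igkc, an immunoglobulin light chain gene, was at 6.05, 1.88 and 0.718 CPM in old and 0.269, 0.363 and 0.336 CPM in young soleus (adjusted p = 0.508).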
